A study of Mus musculus with 10 samples.

Results

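The 10 genes followed here, Pmaip1, Bbc3, Bax, Eda2r, Phlda3, Trp53inp1, Zmat3, Btg2, Ccng1 and Mdm2, are targets of the transcription factor p53 that act in cell death, growth arrest or feedback on p53. They were chosen by name, with earlier results of these data known. Every probe set annotated to each symbol was taken in all 4 groups of the study. Of the 10 genes, 9 had a probe set in the annotation, and Bax is not analysed here. These 9 genes had 15 probe sets among the 45101 on the array, and all 9 were among the 11405 genes tested out of 18193. The brightest probe set of a gene over all arrays stood for it, and 14 of the 15 probe sets were bright enough to be tested.

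Granule cell precursors of the mouse cerebellum, which divide after birth before they become granule neurons, were cultured and profiled on 10 Affymetrix Mouse Genome 430 2.0 arrays. The groups were Bmi1 knockout with sonic hedgehog (Shh; 2 arrays, replicates 8 and 10), wild type with Shh (2 arrays, replicates 7 and 9), Bmi1 knockout untreated (3 arrays, replicates 2, 4 and 6) and wild type untreated (3 arrays, replicates 1, 3 and 5). All cultures came from pups labelled as postnatal day 5 to 7 (day 7 in the series' design text). Culture lasted 24 hours in medium containing 10% fetal calf serum and KCl at 20 mM, and Shh, the main mitogen of these cells, was given for 24 hours at a concentration labelled as 3 mg/ml. How the hours with Shh relate to the hours of culture, the number of animals behind each culture and the deleted part of Bmi1 are not given in the sources used here. The p-values therefore cover only array-to-array spread. One note for wild type replicate 3 speaks of Shh "if applicable", but the title and the other labels call this culture untreated, and it is treated as such here.

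The protein p53 is a transcription factor that is normally held at a low level by the ubiquitin ligase Mdm2, itself a p53 target. The Cdkn2a locus encodes p19Arf, which blocks Mdm2, and Bmi1, a Polycomb protein, is known to hold down Cdkn2a. Active p53 switches on genes that stop the cell cycle and genes that promote cell death, and loss of p53 signalling is a known step in medulloblastoma, a tumour that can arise from granule cell precursors.

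The deposited values are MAS5 signals scaled to the same trimmed mean of 500 on every array. The median signal was 66.6 to 72.1 on the 4 arrays with Shh and 84.4 to 90.9 on the 6 untreated arrays. The control for 18S ribosomal RNA was high on replicate 6 (knockout, untreated; 6301) and replicate 1 (wild type, untreated; 2030) and lay at 219 to 649 elsewhere, so results were also computed without both. The defining granule lineage genes Atoh1, Zic1, Pax6 and Neurod1 gave signal on every array, from 1540 for Atoh1 to 17919 for Neurod1. The Bmi1 probe sets do not check the genotype, because the signal of 1 of them was 3416 to 3432 in knockout and 4165 to 4515 in wild type cultures with Shh, and 3416 to 3904 in knockout and 3673 to 4253 in wild type untreated cultures. In bulk RNA, fewer cells of a type and less RNA per cell cannot be told apart.

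Knockout cultures carried higher transcript levels of most of these p53 targets than wild type cultures, whether or not Shh was present. The genes were chosen with earlier results of these data known, so the counts below describe them and do not test the list. Untreated, 6 of the 9 genes were higher in knockout cultures and 0 were lower by limma with Benjamini-Hochberg adjustment over all tested genes (adjusted p under 0.05), where 0.324% of tested genes were called higher and 0.0526% lower. These 6 were Pmaip1, Bbc3, Eda2r, Phlda3, Zmat3 and Ccng1. With Shh, 7 of the 9 were higher and 0 lower, the same 6 and Trp53inp1, where 0.614% were called higher and 0.114% lower. Averaged over both conditions, the same 7 were higher, where 1.22% of tested genes were. The median log2 difference of the 9 genes was 1.23 with Shh and 0.83 untreated, beside 0.01 and 0.02 over all tested genes. All knockout arrays lay above all wild type arrays for 9 of the 9 genes with Shh, as for 22.3% of all tested genes, and for 7 of the 9 untreated, as for 7.62% of all tested genes. Without replicates 1 and 6, 2 of the 9 genes, Eda2r and Phlda3, were called untreated, and with only the 4 Shh arrays in the fit 2, Pmaip1 and Phlda3, were called with Shh. Without replicate 8 or without replicate 9, 4 of the 9 were called with Shh.

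**Figure D1:**
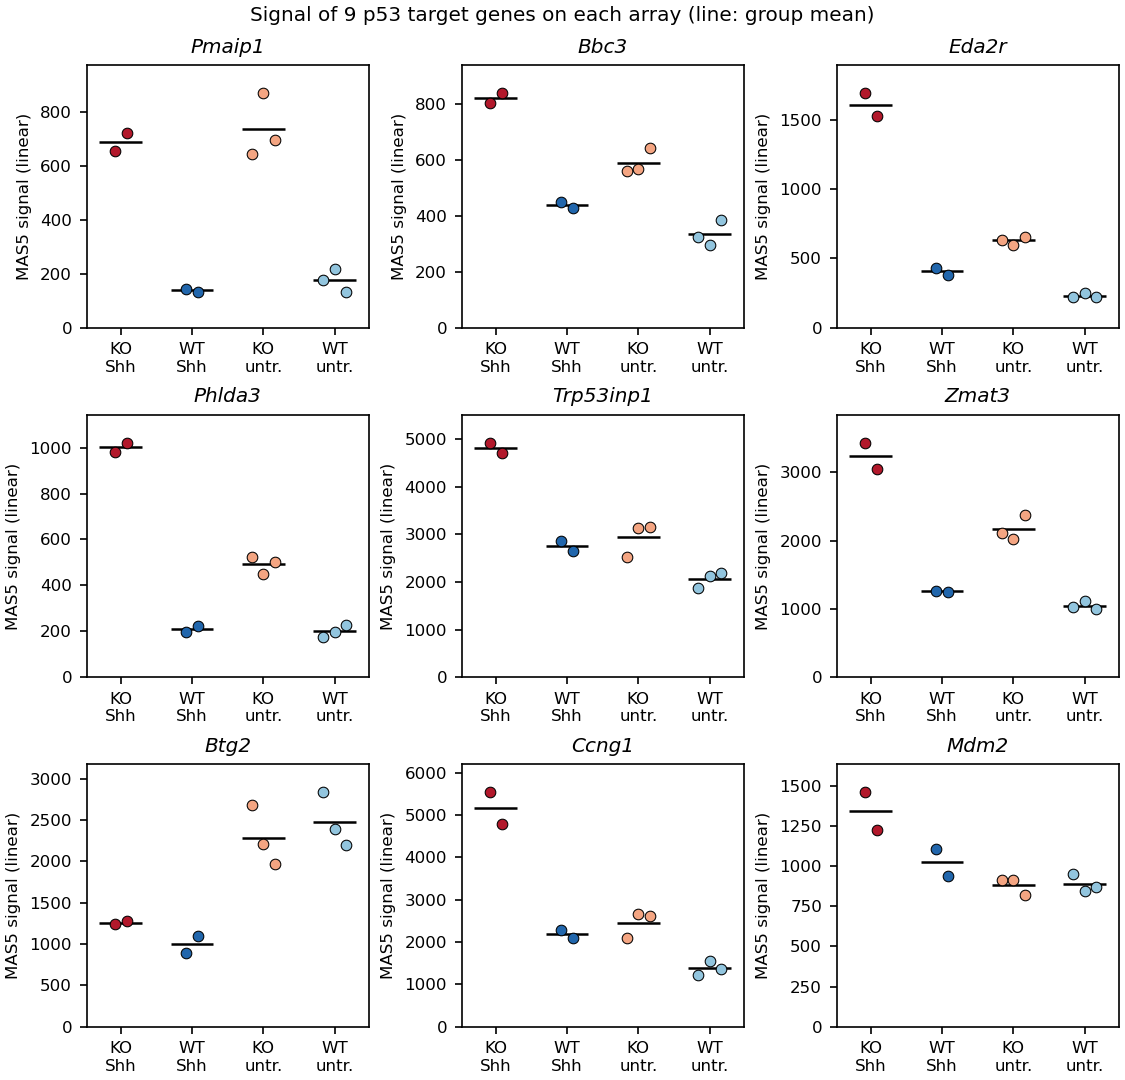
MAS5 signal (linear axis from 0) of the 9 measured p53 target genes on each of the 10 arrays, with 1 panel per gene, points for arrays and a line for the group mean. For Eda2r both knockout cultures with Shh lay at 1525 and 1690, above all other arrays, while for Mdm2 the untreated knockout arrays (819 to 917) overlapped the untreated wild type arrays (846 to 954).

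Pmaip1 and Bbc3 encode BH3-only proteins, which promote cell death. Pmaip1 (Noxa; chromosome 18), whose protein binds and blocks the survival protein Mcl1, read 642, 868 and 697 in untreated knockout cultures, against 175, 217 and 134 in untreated wild type cultures. Its signal was 4.24-fold higher (log2 2.08, SE 0.18, limma adjusted p = 0.00167), with no overlap between the genotypes. In cultures with Shh, Pmaip1 read 654 and 722 in knockout, against 144 and 133 in wild type, a 4.98-fold difference (log2 2.32, SE 0.22, adjusted p = 0.00267). The lowest knockout array stood 2.96-fold above the highest wild type array untreated and 4.54-fold above it with Shh. The untreated call of Pmaip1 was lost without replicates 1 and 6 (log2 2.13, adjusted p = 0.0502), but stayed with any 1 untreated array left out. With each array left out in turn, its log2 difference was 1.90 to 2.25 untreated and 2.24 to 2.39 with Shh.

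Bbc3 (Puma; chromosome 7, 16308398 to 16318334, RefSeq build GRCm38.p6), a BH3-only protein that blocks all of the main Bcl2 survival proteins, differed less. Its signal was 559, 566 and 641 in untreated knockout cultures, against 323, 297 and 383 in untreated wild type cultures, a 1.77-fold difference (log2 0.82, SE 0.11, adjusted p = 0.015). With Shh it was 801 and 837 in knockout, against 450 and 428 in wild type, a 1.87-fold difference (log2 0.90, SE 0.13, adjusted p = 0.0221). The arrays of the genotypes were apart in both conditions. With each array left out in turn, the log2 difference of Bbc3 was 0.74 to 0.92 untreated and 0.86 to 0.94 with Shh. The untreated call was lost when replicate 1, 4 or 6 was left out (at most adjusted p = 0.0856), and the call with Shh when replicate 7, 8, 9 or 10 was (at most 0.145). Averaged over both conditions, Bbc3 was 1.82-fold higher in knockout cultures (log2 0.86, SE 0.09, adjusted p = 0.00155) and stayed past the threshold under all 20 alternatives, with an adjusted p of at most 0.0215.

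Eda2r (chromosome X, 97333837 to 97377234), a receptor of the tumour necrosis factor receptor family that binds the A2 form of ectodysplasin, was called in both conditions with any 1 array left out. Its signal was 632, 599 and 657 in untreated knockout cultures, against 219, 249 and 225 in untreated wild type cultures. Knockout cultures were 2.72-fold higher (log2 1.45, SE 0.09, adjusted p = 0.000246). With Shh, Eda2r read 1690 and 1525 in knockout, against 433 and 379 in wild type, a 3.96-fold difference (log2 1.99, SE 0.12, adjusted p = 0.000176). The groups were far apart in both conditions. Because Eda2r is X-linked, the sex chromosome genes stand beside it: Xist was high (3841 to 5496) and Y-linked Eif2s3y low on replicates 1, 2, 3, 6 and 8, while Xist was at most 66.5 on the other 5 arrays. Among the arrays with low Xist, Eda2r read 599 in the knockout and 225 in the wild type untreated culture, and 1525 in the knockout culture against 433 and 379 in the wild type cultures with Shh. In the fit of the 4 Shh arrays alone Eda2r missed the threshold (adjusted p = 0.0721), with the same difference.

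Phlda3 (chromosome 1, 135766085 to 135769134) encodes a protein with a pleckstrin homology domain that keeps the survival kinase Akt from the membrane. It read 524, 451 and 504 in untreated knockout cultures, against 175, 198 and 227 in untreated wild type cultures, and was 2.47-fold higher (log2 1.31, SE 0.11, adjusted p = 0.00167). With Shh the values were 982 and 1021 in knockout, against 198 and 221 in wild type, a 4.78-fold difference (log2 2.26, SE 0.14, adjusted p = 0.000186). Wild type arrays with and without Shh overlapped, whereas both knockout arrays with Shh lay above all untreated knockout arrays, as for 26.1% of all tested genes. Like Eda2r, Phlda3 kept both calls with any 1 array left out.

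Trp53inp1 (chromosome 4, 11156441 to 11174379), a stress-induced protein that takes part in p53-dependent death and in autophagy, had probe sets that did not move alike. The brighter read 2524, 3127 and 3162 in untreated knockout cultures, against 1872, 2120 and 2185 in untreated wild type cultures, without overlap, but the 1.42-fold difference missed the threshold (log2 0.51, SE 0.11, adjusted p = 0.147). With Shh it read 4924 and 4701 in knockout, against 2859 and 2646 in wild type, a 1.75-fold difference (log2 0.81, SE 0.14, adjusted p = 0.0373). On the dimmer probe set the log2 difference was 0.02 with Shh and 0.08 untreated, the genotypes overlapped in both conditions, and neither was called (adjusted p = 1 and 0.966). The call with Shh was lost without any 1 of replicates 3 to 10 (adjusted p up to 0.225), with a log2 difference of 0.75 to 0.86. Averaging the probe sets gave a log2 difference of 0.42 with Shh (adjusted p = 0.25), and the call on the average of both conditions (log2 0.66, adjusted p = 0.00703) was then lost as well (log2 0.35, adjusted p = 0.0705).

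Among the genes of arrest and of RNA regulation, Zmat3 and Ccng1 were called and Btg2 was not. Zmat3 (Wig1; chromosome 3, 32334792 to 32365665), a zinc finger protein that binds RNA and affects splicing and message stability, read 2114, 2023 and 2378 in untreated knockout cultures, against 1029, 1123 and 995 in untreated wild type cultures. The difference was 2.07-fold (log2 1.05, SE 0.10, adjusted p = 0.00167). With Shh it read 3431 and 3047 in knockout, against 1262 and 1249 in wild type, a 2.57-fold difference (log2 1.36, SE 0.12, adjusted p = 0.00177). All knockout arrays lay above all wild type arrays. Without replicates 1 and 6 the untreated call was lost (adjusted p = 0.0534), but it stayed with any 1 untreated array left out. With the 4 Shh arrays alone the call with Shh was lost (0.0888). With each array left out in turn, the log2 difference of Zmat3 was 0.98 to 1.10 untreated and 1.28 to 1.45 with Shh.

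Ccng1 (cyclin G1; chromosome 11, 40748552 to 40755309), an atypical cyclin that recruits protein phosphatase 2A to Mdm2, had 3 probe sets, and the genotypes were apart on all 3 in both conditions. The brightest read 2105, 2657 and 2609 in untreated knockout cultures, against 1230, 1547 and 1361 in untreated wild type cultures, a 1.78-fold difference (log2 0.83, SE 0.13, adjusted p = 0.0339). With Shh it read 5536 and 4795 in knockout, against 2283 and 2102 in wild type, a 2.35-fold difference (log2 1.23, SE 0.16, adjusted p = 0.00949). The other probe sets gave log2 differences of 1.29 and 1.34 with Shh (adjusted p = 0.00433 and 0.057) and 0.86 and 0.85 untreated (0.011 and 0.188). The 3 probe sets thus differed little in size and more in spread. The untreated call was lost without any 1 of replicates 1 and 4 to 10 (adjusted p up to 0.155), and the call with Shh without replicate 8 or 9 (up to 0.0805), while the log2 difference stayed at 0.75 to 0.94 untreated and 1.13 to 1.34 with Shh.

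Btg2 (chromosome 1, 134074865 to 134079155), an antiproliferative protein that promotes removal of poly(A) tails and marks neural precursors about to leave the cycle, was not called for genotype. Its brighter probe set read 2678, 2211 and 1967 in untreated knockout cultures, against 2833, 2388 and 2199 in untreated wild type cultures, and the groups overlapped (log2 -0.12, 95% interval -0.44 to 0.21, adjusted p = 0.922). With Shh it read 1245 and 1275 in knockout, against 897 and 1103 in wild type, apart but not called (log2 0.34, interval -0.06 to 0.74, adjusted p = 0.597). On the dimmer probe set the log2 difference was 0.71 with Shh (adjusted p = 0.392) and 0.21 untreated (0.884).

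Mdm2 (chromosome 10, 117688875 to 117710758), the feedback inhibitor of p53, was also not called for genotype. Its brightest probe set read 916, 917 and 819 in untreated knockout cultures, against 954, 846 and 869 in untreated wild type cultures. The log2 difference was -0.01 with a 95% interval of -0.25 to 0.23, which lies below the difference of each of the 6 called genes. With Shh, Mdm2 read 1460 and 1228 in knockout, against 1106 and 942 in wild type, apart but not called (log2 0.39, SE 0.13, interval 0.09 to 0.69, adjusted p = 0.314). A second probe set gave -0.01 with Shh and -0.09 untreated, with overlapping groups. The third lay between 2.75 and 55.1 on all arrays, near or below the floor of 20.9 set on low signals, and was not tested.

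**Figure D2:**
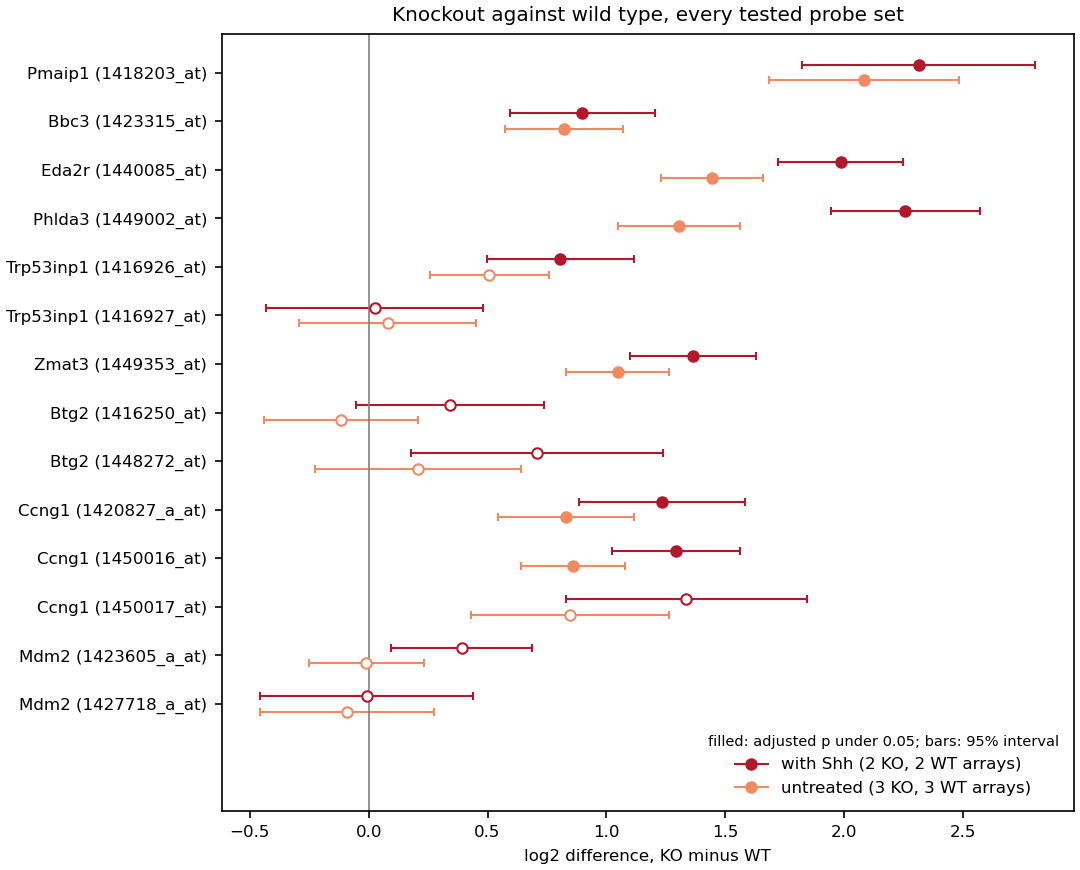
Log2 difference of knockout minus wild type (x axis) for each of the 14 tested probe sets of the 9 genes (rows), with Shh (2 arrays per genotype) above untreated (3 arrays per genotype), bars as 95% intervals of the limma fit and filled points for an adjusted p under 0.05. The points of Pmaip1, Bbc3, Eda2r, Phlda3 and Zmat3 are filled in both conditions and those of Btg2 and Mdm2 in neither.

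Promoter sequence is shown for 4 genes: Ccng1 and Mdm2, in whose windows a p53 half-site was found, the first called for genotype and the second not, and Phlda3 and Eda2r, which had the largest ratios of knockout cultures with Shh over untreated wild type cultures and no half-site in the window. RefSeq windows of GRCm38.p6, from 250 bases before to 50 after a transcript start, were found for 6 of the 9 measured genes (8 windows), and each is written 5′ to 3′ on the strand of the gene. Capitals mark matches to the p53 consensus half-site of 10 bases, whose pattern reads the same on both strands, or to a full site of 2 half-sites at most 13 bases apart with at most 2 mismatches outside the core C and G.
Ccng1 (chr11:40755237-40755536, minus strand): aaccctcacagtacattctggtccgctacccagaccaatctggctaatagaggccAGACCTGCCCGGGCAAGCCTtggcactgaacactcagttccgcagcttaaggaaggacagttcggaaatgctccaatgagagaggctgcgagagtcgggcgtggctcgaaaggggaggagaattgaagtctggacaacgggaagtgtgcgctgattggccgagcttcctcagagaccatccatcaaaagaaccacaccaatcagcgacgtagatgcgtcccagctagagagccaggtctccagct
Mdm2 (chr10:117710709-117711008, minus strand): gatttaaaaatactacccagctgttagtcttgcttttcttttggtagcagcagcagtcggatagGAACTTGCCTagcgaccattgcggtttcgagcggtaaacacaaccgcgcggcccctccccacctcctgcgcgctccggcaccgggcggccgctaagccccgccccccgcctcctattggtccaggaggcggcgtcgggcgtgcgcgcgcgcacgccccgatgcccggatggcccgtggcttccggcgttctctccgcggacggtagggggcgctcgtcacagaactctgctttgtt
Phlda3 (chr1:135765835-135766134, plus strand): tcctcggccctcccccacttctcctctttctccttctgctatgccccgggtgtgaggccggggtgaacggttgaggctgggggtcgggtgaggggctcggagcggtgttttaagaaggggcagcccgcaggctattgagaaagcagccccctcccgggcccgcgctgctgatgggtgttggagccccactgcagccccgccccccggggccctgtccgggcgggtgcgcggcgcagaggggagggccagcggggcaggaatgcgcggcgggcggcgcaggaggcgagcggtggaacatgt
Eda2r (chrX:97377160-97377459, minus strand): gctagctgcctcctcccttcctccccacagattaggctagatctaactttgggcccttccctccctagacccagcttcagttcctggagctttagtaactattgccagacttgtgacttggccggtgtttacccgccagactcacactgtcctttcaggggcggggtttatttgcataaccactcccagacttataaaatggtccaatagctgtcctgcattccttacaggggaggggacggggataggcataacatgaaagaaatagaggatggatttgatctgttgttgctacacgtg
The Ccng1 window held 2 overlapping matches to a full site, of which the match with fewest mismatches is marked (chr11:40755462-40755481). It begins 195 bases before the start, has 1 mismatch and no bases between its half-sites, and overlaps the perfect half-site that begins 185 bases before the start. In the Mdm2 window the half-site (chr10:117710935-117710944) begins 186 bases before the start. Half-sites stood in 2 of the 8 windows of these genes and a full site in 1, beside 8.36% and 4.09% of all 32851 RefSeq windows of this length. Among the 38 windows found for other p53 targets the shares were 31.6% and 18.4%. A match describes these letters only, and the windows of Btg2 and Bbc3 held none.

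In wild type cultures, several of these genes differed between Shh and untreated arrays. Of the 9 genes, 4 rose with Shh in wild type cultures (Bbc3, Eda2r, Trp53inp1 and Ccng1), where 14% of tested genes rose, and 1 fell (Btg2), where 19.8% fell. In knockout cultures 7 rose (the same 4 with Phlda3, Zmat3 and Mdm2), where 11% rose, and 1 fell (Btg2), where 17% fell. The median log2 difference of the 9 genes with Shh was 0.60 in knockout and 0.26 in wild type cultures, beside -0.01 for all tested genes in each. Of 27 tested other p53 targets, 16 rose in knockout (median 0.39) and 12 in wild type cultures (median 0.30). Of 12 tested paralogs of the members, 2 rose in knockout and 5 in wild type cultures. In each genotype 1 of 19 p53 regulators and 1 of 15 other Bcl2 family genes rose. A rise with Shh was thus not particular to these 9 genes. The 2 Shh comparisons share no arrays, but each shares its arrays with the genotype comparisons.

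Eda2r had the largest rise with Shh among the 9 genes, to 2.55-fold in knockout cultures (log2 1.35, SE 0.11, adjusted p = 4.81e-05) and 1.75-fold in wild type (log2 0.81, SE 0.11, adjusted p = 0.000542). Ccng1 rose 2.11-fold in knockout (log2 1.08, SE 0.14, adjusted p = 0.000723) and 1.60-fold in wild type (log2 0.67, SE 0.14, adjusted p = 0.00628), and its other probe sets gave 1.09 and 1.16 in knockout and 0.66 and 0.67 in wild type, all called. Trp53inp1 rose by log2 0.72 in knockout (SE 0.12, adjusted p = 0.00289) and 0.42 in wild type cultures (SE 0.12, adjusted p = 0.0285). The Shh response of the dimmer Trp53inp1 probe set had a similar size, 0.41 in knockout and 0.46 in wild type, without a call. Bbc3 rose by log2 0.48 in knockout (SE 0.12, adjusted p = 0.0187) and 0.40 in wild type cultures (SE 0.12, adjusted p = 0.0328). With each array left out in turn, the log2 rise of Bbc3 stayed at 0.44 to 0.54 in knockout and 0.32 to 0.50 in wild type cultures, and that of Trp53inp1 at 0.35 to 0.48 in wild type cultures. Some calls were lost: that of Bbc3 in knockout cultures when replicate 2, 4, 8 or 10 was absent (at most adjusted p = 0.1), in wild type cultures when 1, 3, 7 or 9 was (at most 0.151), and that of Trp53inp1 in wild type cultures without 1, 7 or 9 (up to 0.151). Without replicate 1 the count of called members in wild type cultures was 3, where 31.1% of all tested genes were called in either direction. With all arrays it was 5, where 33.8% were.

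Phlda3, Zmat3 and Mdm2 passed the threshold with Shh in knockout cultures and not in wild type cultures. Phlda3 rose 2.04-fold in knockout cultures (log2 1.03, SE 0.13, adjusted p = 0.000554), against a log2 difference of 0.07 in wild type cultures (SE 0.13, 95% interval -0.21 to 0.36, adjusted p = 0.688). Zmat3 rose by log2 0.58 in knockout (SE 0.11, adjusted p = 0.00418), against 0.26 in wild type cultures (SE 0.11, adjusted p = 0.0907). Its wild type arrays with Shh all lay above the untreated ones, as for 27.3% of all tested genes. Mdm2 rose by log2 0.60 in knockout (SE 0.12, adjusted p = 0.00591), against 0.20 in wild type cultures (SE 0.12, adjusted p = 0.233). The Mdm2 rise was lost without replicate 8 (adjusted p = 0.0598) and when its probe sets were averaged (log2 0.19, adjusted p = 0.396), and the second Mdm2 probe set gave 0.26 in knockout cultures (adjusted p = 0.348).

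Pmaip1, called for genotype in both conditions, was not called for Shh. Its log2 difference with Shh was -0.09 in knockout (95% interval -0.53 to 0.36, adjusted p = 0.777) and -0.32 in wild type cultures (-0.76 to 0.13, adjusted p = 0.248). Btg2 was called lower with Shh, falling by 0.85 on the log2 scale in knockout (SE 0.16, adjusted p = 0.00456) and by 1.31 in wild type cultures (SE 0.16, adjusted p = 0.000377). The dimmer Btg2 probe set fell by 1.03 in knockout and by 1.53 in wild type cultures. All arrays with Shh lay below all untreated arrays of the same genotype on both Btg2 probe sets. Such a separation held for 29.5% of all tested genes in knockout and 31.2% in wild type cultures.

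**Figure D3:**
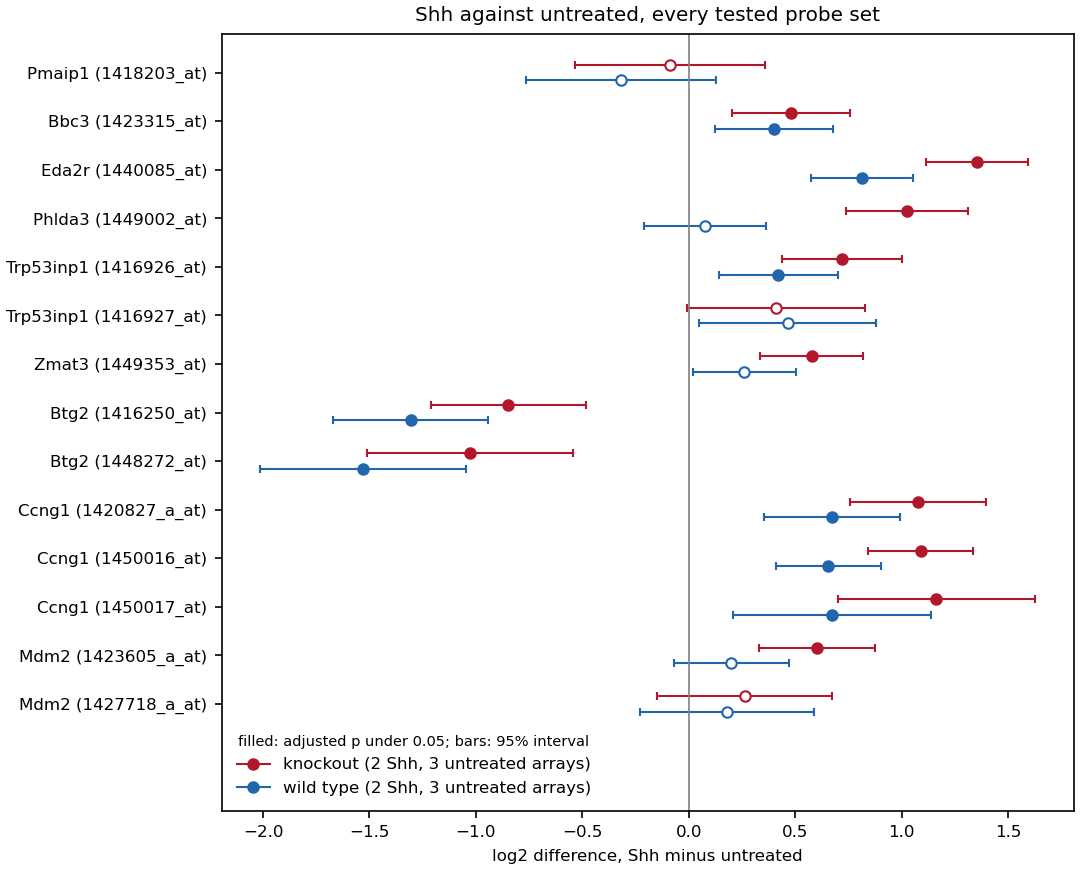
Log2 difference of Shh minus untreated (x axis) for the 14 tested probe sets of the 9 genes (rows), with knockout above wild type (2 Shh and 3 untreated arrays each), bars as 95% intervals of the limma fit and filled points for an adjusted p under 0.05. Btg2 lies left of 0 in both genotypes, Pmaip1 is unfilled in both, and Phlda3 is at 1.03 in knockout and 0.07 in wild type.

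The scaling between arrays bears on the Shh values more than on the genotype values. Over all tested genes, 1593 rose and 2262 fell with Shh in wild type cultures, and 1260 rose and 1939 fell in knockout cultures. With each array centred on its median instead, 5177 rose and 1246 fell in wild type and 4346 rose and 1135 fell in knockout cultures, and the median of all tested genes moved to 0.33 and 0.29. Under that scaling 8 members were called in wild type cultures, with Phlda3 at 0.42, Zmat3 at 0.61 and Mdm2 at 0.55, while Btg2 stayed lower (-0.96) and Pmaip1 changed sign without a call (0.03). The 0.42 of Phlda3 thus stands beside a shift of 0.33 in all genes.

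The interaction of genotype and Shh asks whether the Shh response differed between the genotypes. None of the 9 genes passed it (0 of 9), where 1 of 11405 tested genes did (0.00877%). The estimate still lay above 0 for all 9, as for 50.2% of all tested genes, with a median of 0.40 beside 0.00 over all tested genes. On the dimmer Trp53inp1 probe set it was -0.05. The estimate for Phlda3 was 0.95 (SE 0.18, unadjusted p = 0.000473, adjusted p = 0.444), for Eda2r 0.54 (SE 0.15, adjusted p = 0.686) and for Mdm2 0.40 (SE 0.17, adjusted p = 0.987), the 3 with an unadjusted p under 0.05. That Phlda3, Zmat3 and Mdm2 responded to Shh in knockout cultures alone was therefore not shown. Among all tested genes 561 had an unadjusted p under 0.05.

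Set against untreated wild type cultures, the baseline for both changes, knockout cultures with Shh had 6.96 times the Eda2r signal, 5.04 times the Phlda3, 3.99 times the Pmaip1, 3.75 times the Ccng1 and 3.09 times the Zmat3 signal. The ratios were lower for Bbc3 (2.46), Trp53inp1 (2.34) and Mdm2 (1.51), and 0.51 for Btg2. The order over the 4 groups also differed between genes. For Pmaip1 both knockout groups lay together (688 ± 48.5 with Shh, SD, n = 2, and 736 ± 118 untreated, n = 3) above both wild type groups (138 ± 8.03 with Shh and 175 ± 41.6 untreated). Ccng1 descended from knockout with Shh (5166 ± 524) through untreated knockout (2457 ± 306) and wild type with Shh (2192 ± 127), which differed by less than the SD of the untreated knockout arrays, to untreated wild type (1379 ± 159). Trp53inp1 had the same order of groups, with untreated knockout (2938 ± 358) and wild type with Shh (2752 ± 151) again within that spread.

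Across the 10 arrays the log2 values of 7 members followed the mean of the others closely, with Pearson's r of 0.82 for Pmaip1, 0.90 for Trp53inp1, 0.92 for Ccng1, 0.94 for Bbc3, 0.97 for Eda2r and 0.98 for Phlda3 and Zmat3. The value was 0.57 for Mdm2 and -0.39 for Btg2. These are descriptions over 10 arrays in 4 groups that share genotype, treatment and scaling. Among the other tested genes, the 10 most like the mean of the members had r of 0.94 to 0.97. Aen (0.97), a p53-induced nuclease of apoptosis, came first, followed by Exoc4, Mab21l2, Actc1, Map3k20, Zdbf2, Trip11, Tmem11, the p53 target Psrc1 and Lcor. Aen was higher in knockout cultures by log2 1.37 with Shh (adjusted p = 0.0048) and 1.32 untreated (adjusted p = 0.00167).

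Other genes of the pathway were compared with the members by list, and these lists too were chosen with earlier results known. Of 27 tested other p53 targets, 2 were higher in knockout cultures with Shh and 3 untreated, and 0 were lower. Among all tested genes 0.614% were higher with Shh and 0.324% untreated. Averaged over both conditions, 7 of the 27 were higher and 0 lower, where 1.22% of tested genes were higher. The list's median log2 difference was 0.30 with Shh and 0.21 untreated. Cdkn1a, the cyclin-dependent kinase inhibitor p21, read 8750 and 8551 in knockout and 2439 and 2870 in wild type cultures with Shh (log2 1.71, SE 0.19, adjusted p = 0.0048). Untreated it read 4817, 4186 and 5503 in knockout, against 1184, 946 and 823 in wild type (log2 2.30, SE 0.15, adjusted p = 0.000246). Cdkn1a also rose with Shh in both genotypes, by log2 0.85 in knockout and 1.44 in wild type cultures. Its interaction estimate was -0.59 (SE 0.24, adjusted p = 0.981), opposite in sign to those of the 9 members. Of the 27 other p53 targets, 18 had an interaction estimate above 0, with a median of 0.07 over the list. Psrc1, a microtubule-associated protein, was called untreated (log2 0.76, adjusted p = 0.036) and gave 0.74 with Shh (adjusted p = 0.0704). Ckap2, a spindle protein, was not called for genotype in either condition alone (0.39 with Shh and 0.48 untreated). It was called higher on the average of both conditions (log2 0.43, adjusted p = 0.0242), and it rose with Shh in knockout (0.78) and wild type cultures (0.88).

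Of 19 tested genes among p53 and its regulators, the median difference was 0.02 with Shh and 0.10 untreated. In each condition 1 was higher, where 0.614% of tested genes were with Shh and 0.324% untreated, and 0 were lower. That gene was Cdkn2a, which read 329 and 451 in knockout and 31.1 and 24.0 in wild type cultures with Shh (log2 3.82, SE 0.20, adjusted p = 0.000131). Untreated it read 273, 271 and 301 in knockout, against 35.7, 30.2 and 41.6 in wild type (log2 2.98, SE 0.16, adjusted p = 9.56e-05). The wild type arrays thus lay close to the floor of 20.9, and all lay under the filter signal of 76.1. That filter used the mean over all arrays, which Cdkn2a passed only through its knockout arrays. Mdm4, the relative of Mdm2 that masks the p53 activation domain, gave 0.12 with Shh and 0.10 untreated (adjusted p = 0.909 and 0.9). The checkpoint kinase Chek1 gave -0.35 with Shh and 0.12 untreated, the p53 cofactor Ppp1r13b (ASPP1) 0.18 and 0.05, and the deubiquitinase Usp2, known to stabilise Mdm2, 0.56 and -0.06, none called. Trp53 itself is not analysed here. Which transcripts of the Cdkn2a locus the signal of that gene comes from was not examined.

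Among other genes of the death machinery few were called. Over all tested genes, 0.728% were called with Shh and 0.377% untreated in either direction. A count of 0 in lists of this size is near those shares. Of 15 other Bcl2 family genes, 1 was higher in each condition, the BH3-only gene Hrk (log2 1.24, adjusted p = 0.0165, with Shh and 0.93, adjusted p = 0.0339, untreated). Hrk read 348 and 275 in knockout and 148 and 117 in wild type cultures with Shh. In the same list 1 gene was lower with Shh, the mitophagy gene Bnip3 (log2 -0.68, adjusted p = 0.0497), which gave -0.01 untreated. The Bax-related gene Bok and the BH3-only gene Bid were not called (-0.12 and -0.10 with Shh, 0.00 and 0.05 untreated). Of 16 tested caspase pathway genes 0 were called in either direction in either condition, where the nuclease gene Endog gave 0.41 with Shh and 0.22 untreated, the DNA-fragmentation nuclease Dffb 0.42 and 0.20, Casp8 -0.50 and 0.04, and the apoptosis inhibitor Birc5 -0.19 and 0.01. Of 12 tested paralogs of the members 0 were called, and Ccng2, the relative of Ccng1, gave -0.17 in both conditions. The medians of these lists lay between -0.05 and 0.09.

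**Figure D4:**
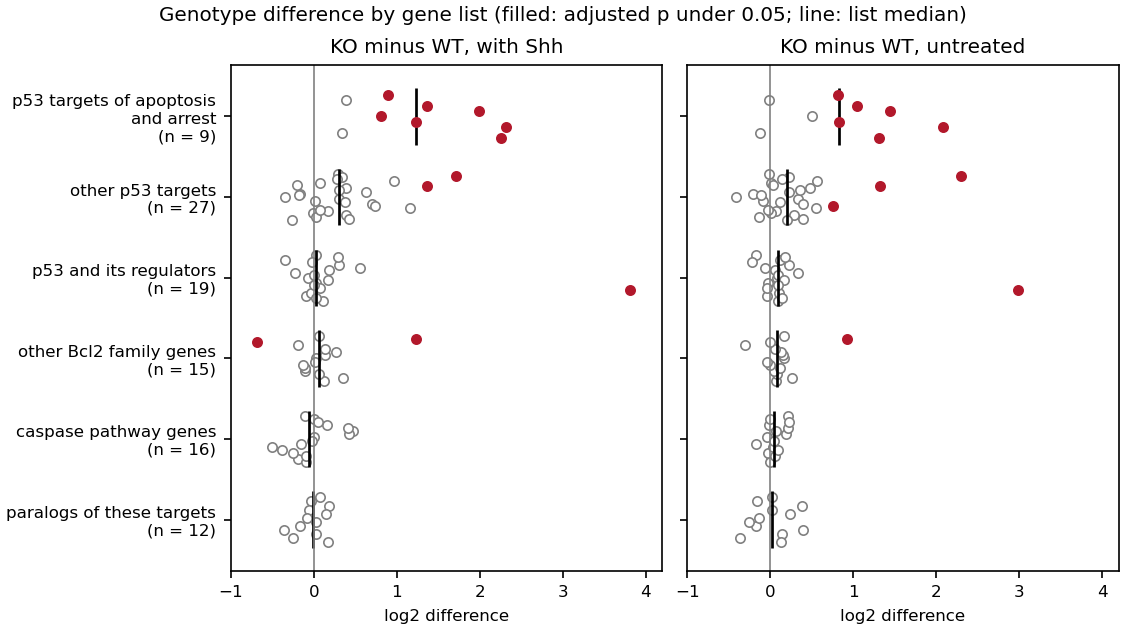
Log2 difference of knockout minus wild type (x axis) for each tested gene of 6 lists (rows), with Shh on the left and untreated on the right, filled points for an adjusted p under 0.05 and a vertical line for each list's median. The 9 members have medians of 1.23 with Shh and 0.83 untreated, the other p53 targets 0.30 and 0.21, and Cdkn2a is the lone filled point among the regulators at 3.82 and 2.98.

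Markers of other cells moved with the groups, and their part in the members' differences was not tested. Over all tested genes, 53.5% lay above 0 for genotype with Shh and 55.6% untreated. With Shh 0.614% were called higher and 0.114% lower, and untreated 0.324% and 0.0526%. Between genotypes, 0 of 14 microglia and macrophage markers lay above 0 in either condition (1 called lower with Shh, 0 untreated). Their summed signal was 4270 to 5908 in knockout and 6894 to 7209 in wild type cultures with Shh, and 8393 to 9304 in knockout and 9663 to 14097 in wild type untreated cultures. Of 10 GABAergic interneuron markers, 8 lay above 0 in each condition (1 called with Shh, 0 untreated), with sums of 7507 to 7803 in knockout and 5929 to 6334 in wild type with Shh, and overlapping sums untreated (10776 to 13790 in knockout and 9034 to 12124 in wild type). With Shh, 13 of 14 astrocyte and 8 of 10 oligodendrocyte lineage markers also lay above 0 (2 and 3 called). Sums were 33888 to 37638 in knockout and 27218 to 29543 in wild type for astrocyte markers. For the 11 oligodendrocyte markers with a probe set they were 15565 to 19493 against 13296 to 13932. Untreated, 6 of 14 astrocyte and 4 of 10 oligodendrocyte lineage markers lay above 0, and 0 were called in either list. Their untreated medians were -0.06 and -0.07, and the untreated sums of the genotypes overlapped. Averaged over both conditions, 3 of the 14 microglia and macrophage markers were called lower, where 0.324% of tested genes were. Called higher were 4 of the 10 GABAergic interneuron and 2 of the 10 oligodendrocyte lineage markers, where 1.22% of tested genes were. Of 17 mitosis genes, 1 lay above 0 with Shh and 10 untreated, none called. Of 15 granule lineage markers 0 were called for genotype.

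Between Shh and untreated cultures the marker changes were larger. Over all tested genes, 17% fell and 11% rose in knockout cultures, and 19.8% fell and 14% rose in wild type cultures. Endothelial and pericyte markers fell in 8 of 8 tested genes in both genotypes. Their sums, over 12 genes with a probe set, were 412 to 446 in knockout and 413 to 524 in wild type with Shh. Untreated the sums were 7740 to 9531 and 7582 to 9030. Astrocyte and Bergmann glia markers fell in 12 of 14 genes in each genotype, and Purkinje cell markers in 8 of 9 in knockout and 9 of 9 in wild type cultures. Fibroblast markers fell in 7 of 8 genes in each genotype, oligodendrocyte lineage markers in 6 of 10 in knockout and 8 of 10 in wild type, and microglia markers in 7 of 14 in each. GABAergic interneuron markers fell in 6 of 10 in knockout and 7 of 10 in wild type cultures. A few of these markers rose, with 2 microglia markers in knockout and 1 in wild type cultures, 1 oligodendrocyte lineage marker in each, and 1 astrocyte marker in knockout and 0 in wild type cultures. Mitosis genes rose in 12 of 17 in knockout and 15 of 17 in wild type cultures, with sums of 58120 to 65061 and 70556 to 71350 with Shh, against 43223 to 46854 and 43198 to 45734 untreated. Of 15 granule lineage markers, 3 fell in knockout and 4 in wild type cultures, near the shares over all tested genes, and 0 rose in either genotype. The lowest log2 difference in this list was -4.92 in knockout and -5.08 in wild type cultures, beside medians of -0.11 and -0.21. Of the tested markers of other cells, Flt1 and P2ry12 lay at the floor on 3 arrays, Abcc9 on 2 and Ppp1r17 on 1. The Shh response of the members comes from these same cultures, and the part of cell composition in it was not tested.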

How the data were processed

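Levels were read from 10 single-colour arrays, 1 per culture, grouped by the genotype and treatment in the labels. The authors' deposited values are signal intensity on a linear scale made with MAS5, and GCOS 1.2 is named per the submitters' processing notes. No detection calls were used here. Control probe sets (64) were left out. Of the others, 34945 had 1 gene symbol, 932 several and 9160 none, and 34741 were matched to RefSeq names of GRCm38.p6. Signals under the 25th percentile of all values (20.9) were raised to it, which understates changes of dim genes, and log2 was taken. Genes were represented by the probe set with the highest mean, and tested at a mean signal of at least 76.1.

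One mean per group was fitted over all 10 arrays with limma 3.58.1 in R 4.3.3 (6 residual and 3.11 prior degrees of freedom), with two-sided tests and Benjamini-Hochberg adjustment over the 11405 genes (threshold 0.05). Probe sets that do not stand for their gene come from the same model over 22519 probe sets. Errors are SE of that fit unless given as SD, and intervals are 95% intervals. The procedure was tested on simulated data.

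Culture numbers are unique in the labels. Deviations from group means, correlated over genes, were 0.120 to 0.278 for consecutive numbers of untreated cultures and 0.160 with Shh, against -0.265 to 0.0529 for other untreated pairings. Every such pair lay over 0.1, but these values are not independent, because deviations from a group's mean cancel out within the group. With Shh, replicates 7 with 8 and 9 with 10 therefore share the same value, and 7 with 10 and 9 with 8 its opposite (-0.160). The correlations thus cannot decide whether the cultures were paired. Consecutive numbers were taken as pairs in a block fit only, and the main fit used no pairing. No label names them as pairs. A fit with them as a block was run beside the main one. Members and lists were chosen with earlier results of these data known. From each other list the members called in most comparisons are named (up to 4), with Cdkn1a, Cdkn2a and Mdm4 always, and the 10 genes most correlated with the members' mean. Marker lists were not tested as sets, and their summed signals cover every marker with a probe set, also those too dim to be tested. Alternatives covered the floor, scaling, filter, probe set choice, prior, arrays in the fit, pairing and single arrays. The number of arrays limits the precision.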

Additional observations from a re-analysis of the deposited data

How the results depend on the processing

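Counts of called members are given here out of 9, with the count over all tested genes where it moved by over 1.5 times. Knockout against wild type with Shh gave 7 members (83 genes), and 2 members (3 genes) with only the 4 arrays compared. Untreated it gave 6 members (43 genes), and 2 members (10 genes) without replicates 1 and 6, whose 18S signal was high. Shh in wild type gave 5 members, 8 with median centring and 3 without replicates 1 and 6. Of all tested genes, 33.8%, 56.3% and 29.4% were called in these fits, in the same order. For genotype with Shh, 5 members (52 genes) were called without replicates 1 and 6. Leaving out each array in turn gave 4 to 7 members for genotype with Shh (29 to 91 genes, lowest without replicate 8), 4 to 6 untreated (19 to 50 genes, lowest without replicate 6), 7 for the genotype average (82 to 219 genes), 6 to 8 for Shh in knockout, 3 to 5 for Shh in wild type and 0 for the interaction (0 to 2 genes).

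The fit with a replicate block, paired by consecutive culture numbers, gave 7 members (50 genes) with Shh, 6 (23 genes) untreated, 7 for the average and 0 for the interaction, and changed no member's call. Over all genes, Shh in wild type called 3855 genes and 2380 without replicate 9, and Shh in knockout 3199, with 1893 without replicate 8 and 2045 without 10. Median centring gave 5481 genes in knockout and 6423 in wild type. The untreated genotype count was 66 with an offset of 50 in place of the floor. With a trended, robust prior it was 82, and 134 with Shh. Quantile normalization gave 51 genes with Shh, and the most variable probe set 55. The genotype average called 176 genes, with 80 without replicates 1 and 6 and 95 with the most variable probe set. The interaction called 1 gene, with 8 without the filter on dim genes, 2 without the floor, 1 with the trended prior and 0 under the other alternatives that kept all arrays.

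Directions changed for values that were not called. These were Pmaip1 for Shh in wild type (0.0117 with quantile normalization, 0.0303 with median centring) and in knockout (0.205 with median centring), the interactions of Pmaip1 (-0.0773) and Bbc3 (-0.0416) with quantile normalization, and Btg2 for genotype untreated (0.0447 with probe sets averaged, 0.207 with the most variable probe set). Without replicates 1 and 6, Btg2 gave 0.0865 and Mdm2 0.0955 for genotype untreated, and Phlda3 -0.0179 for Shh in wild type. With each array left out in turn, signs changed for Mdm2 untreated (-0.0457 to 0.0440), Phlda3 for Shh in wild type (-0.0179 to 0.170), Pmaip1 for Shh in knockout (-0.179 to 0.0383) and the Bbc3 interaction (-0.0242 to 0.160). The cause of these changes was not tested.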
